A study of Mus musculus with 84 samples.

Results

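Described here are 9 liver genes that handle glucose, fructose and glycogen: Gckr, Slc2a2, Pklr, Khk, Pck1, Fbp1, G6pc, Gys2 and Pygl. They were chosen by name, as the rows of the count files whose gene IDs carry these symbols in the authors' table, and the rule uses no measured value. They are 9 of 37310 gene IDs counted, and all 9 are among the 16195 genes tested. RNA sequencing was done on 84 liver libraries of mice from 14 strains, by their labels all pregnant females. Each strain had 3 libraries of TCDD-treated and 3 of vehicle-treated mice. The TCDD groups ate 2,3,7,8-tetrachlorodibenzo-p-dioxin, which activates the aryl hydrocarbon receptor (AHR), in peanut butter for 10 days at a daily 0.1 µg/kg. The vehicle groups had the same peanut butter without it. Mice were 6 to 8 weeks old when dosing began, were put into a dose group at random once a mating plug was seen, were killed on day 11 and were kept only if pregnant. CC019/TauUnc is a line of the Collaborative Cross and BXD-40/TyJ, BXD91/2RwwJ and BXD100/RwwJ are recombinant inbred, while 129S1/SVIMJ, A/J, BALB/CJ, C3HeB/FeJ, FVB/NJ, C57BL6/J, DBA1/J, CBA/J, NOD/SHILTJ and NZO/HILTJ are classical inbred strains. Whether each library is of a separate mouse is not stated in the labels, and p-values then gauge only how these libraries spread, which may be technical. Counts of 2 libraries of a group differed beyond the spread of counting alone. Chi-square per degree of freedom was 12.8 (BXD-40/TyJ vehicle 2 and 3) to 206 (C57BL6/J TCDD 1 and 3). Whether the libraries are of separate mice was not tested. By the labels every mouse was a pregnant female, and the comparisons are about such mice. The library labelled C57BL6/J TCDD 3, described below, goes against its label and stays in the main fits.

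The liver takes up glucose after a meal and gives it back between meals. Uptake runs through the transporter encoded by Slc2a2, the Gckr protein is a nuclear regulator of hepatic glucose use, and pyruvate kinase (Pklr) ends glycolysis, while ketohexokinase (Khk) brings fructose into the same route. In the other direction phosphoenolpyruvate carboxykinase (Pck1), fructose bisphosphatase (Fbp1) and glucose 6-phosphatase (G6pc) make new glucose, and glycogen synthase (Gys2) and glycogen phosphorylase (Pygl) store and release it as glycogen. Insulin, glucagon, glucocorticoids and the liver clock set the transcription of several of these genes. High doses of TCDD are known to lower Pck1 and G6pc in rodent liver and to reduce feeding.

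The promoters of Pklr and Pck1 are shown because both carry a well-known regulatory element of this pathway, and because Pklr had the only within-strain change of the 9 genes that the authors' deposited table calls and Pck1 one of the widest spreads between like libraries. Each stretch is the 250 bases before a RefSeq transcription start in build GRCm38.p6, read 5′ to 3′ on the + strand.
Pklr, chr3:89136373-89136622: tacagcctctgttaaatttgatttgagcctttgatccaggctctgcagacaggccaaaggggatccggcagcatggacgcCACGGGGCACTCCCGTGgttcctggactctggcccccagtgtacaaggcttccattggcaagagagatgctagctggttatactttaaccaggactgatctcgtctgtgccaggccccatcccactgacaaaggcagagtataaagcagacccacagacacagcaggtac
Pck1, chr2:173152823-173153072: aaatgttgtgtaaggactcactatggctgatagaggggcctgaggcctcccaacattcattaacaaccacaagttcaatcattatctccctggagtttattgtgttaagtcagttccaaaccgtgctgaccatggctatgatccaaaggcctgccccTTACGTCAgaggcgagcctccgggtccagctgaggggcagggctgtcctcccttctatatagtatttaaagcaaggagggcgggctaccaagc
Capitals mark the paired E-box of Pklr, the element through which the glucose sensor ChREBP (Mlxipl) is known to act, at −170 to −154 from the start, and the cAMP response element of Pck1, known for its response to glucagon, at −93 to −86. Written as CACGNG, 7 bases of any kind and CGTG, and searched on both strands, the paired E-box stands in 0.183% of 32851 RefSeq promoter windows, each of 250 bases before to 50 after a start, and TTACGTCA in 0.499%. A second RefSeq start of Pklr has no match to it. RefSeq windows were at hand for 8 of the 9 genes, all but Gys2. The letters GCGTG, the core of the element that AHR binds, stand in the windows of Gckr and Pygl and in 32.4% of all windows, and the E-box CACGTG stands in that of Khk and in 7.15% of all. In the Pklr and Pck1 windows no searched motif overlapped another. These matches describe letters only.

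Gene counts ran from 9122406 to 19689624 per library (median 16202909), and the 9 genes had 914 to 114848 counts each in every library. Levels are given as counts per 1000000 gene counts of the library (CPM). Cyp1a1, the classic AHR target, checked the dose: its log2 change averaged over strains was 5.08 ± 0.31 (SE; adjusted p = 4.3e-19, edgeR quasi-likelihood test), and it was called higher in 6 of 14 strains. In C57BL6/J it stood at 1604, 1394 and 1.21 CPM in the TCDD libraries and 0.384, 0.436 and 0.0595 CPM in the vehicle libraries, so that the library labelled C57BL6/J TCDD 3 stood near the vehicle level. That library also had Xist, the RNA of the inactive X chromosome of female cells, at 0.219 CPM against 52.0 to 679 CPM in the other 83 libraries, and Mup20, a pheromone carrier of male mice, at 705 CPM against 0 to 26.2 CPM. It goes against its label and is called by it throughout, and it had the lowest Pck1 and the highest Khk of all 84 libraries. A/J vehicle 2 had the skeletal muscle markers at a summed 1994 CPM, and BXD-40/TyJ vehicle 1 had the adrenal cortex markers at 645 CPM. A/J vehicle 2 also had the highest sum of pancreas acinar markers, 410.4 CPM, against at most 59.1 CPM in TCDD and 58.7 CPM in the other vehicle libraries. Of the 6 fat cell markers, BXD-40/TyJ vehicle 1 also had the highest Cfd (97.6 CPM), Cidec (25.9 CPM), Plin1 (13.5 CPM), Adipoq (12.4 CPM) and Retn (5.89 CPM). The remaining marker, Car3, was highest in C57BL6/J TCDD 3 (2437 CPM) and, in vehicle libraries, CBA/J vehicle 2 (1615 CPM). Car3 made up most of the summed fat cell markers, which were highest in the same libraries (2458 and 1618 CPM). Hepatocyte markers summed to 61678 to 111170 CPM in TCDD and 60693 to 112760 CPM in vehicle libraries, and kidney markers, of an organ that also makes Pck1, G6pc and Fbp1, to at most 0.905 CPM in TCDD and 0.880 CPM in vehicle libraries. Small intestine also makes several of them, and its markers summed to 208 to 3942 CPM in TCDD (median 465) and 194 to 2655 CPM in vehicle libraries (median 448), highest in 129S1/SVIMJ TCDD 1 and 129S1/SVIMJ vehicle 2. Most of these sums is Apoa4, an apolipoprotein gene that mouse liver transcribes too, at up to 3899 CPM in TCDD and 2619 CPM in vehicle libraries, while the villus gene Vil1 reached 3.197 CPM in TCDD and 3.93 CPM in vehicle libraries, and Alpi and Lct stayed below 1 CPM in all. Fabp2, the intestinal fatty acid binding protein gene, had 22.7 to 209 CPM (median 35.8) in TCDD libraries, highest in C57BL6/J TCDD 3, and 19.6 to 60.6 CPM (median 37.1) in vehicle libraries, highest in BXD100/RwwJ vehicle 3. The part of these intestinal markers in the results was not tested. In bulk RNA, fewer cells of a type and less RNA per cell cannot be told apart. The names of the deposited files show alignment references that differ between strains, so differences between strains and between references cannot be told apart.

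Per kilobase of exon, Pck1 and Fbp1 of glucose production were the most abundant of the 9. The median over the 42 TCDD libraries was 1087 CPM per kb for Pck1, against 1083 over the 42 vehicle libraries. Fbp1 came next with 736 in TCDD and 713 in vehicle libraries, and Khk with 256 in TCDD and 274 in vehicle libraries. G6pc (111 in TCDD, 89.7 in vehicle libraries) and Pklr (83.2 in TCDD, 98.4 in vehicle libraries) lay between, and their order by median differed between the treatments. The remaining 4 genes stood close together. These were Gckr with 48.4 in TCDD and 45.7 in vehicle libraries, Pygl with 48.2 in TCDD and 48.6 in vehicle libraries, Slc2a2 with 45.8 in TCDD and 44.2 in vehicle libraries, and Gys2 with 42.1 in TCDD and 47.3 in vehicle libraries.

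**Figure D1:**
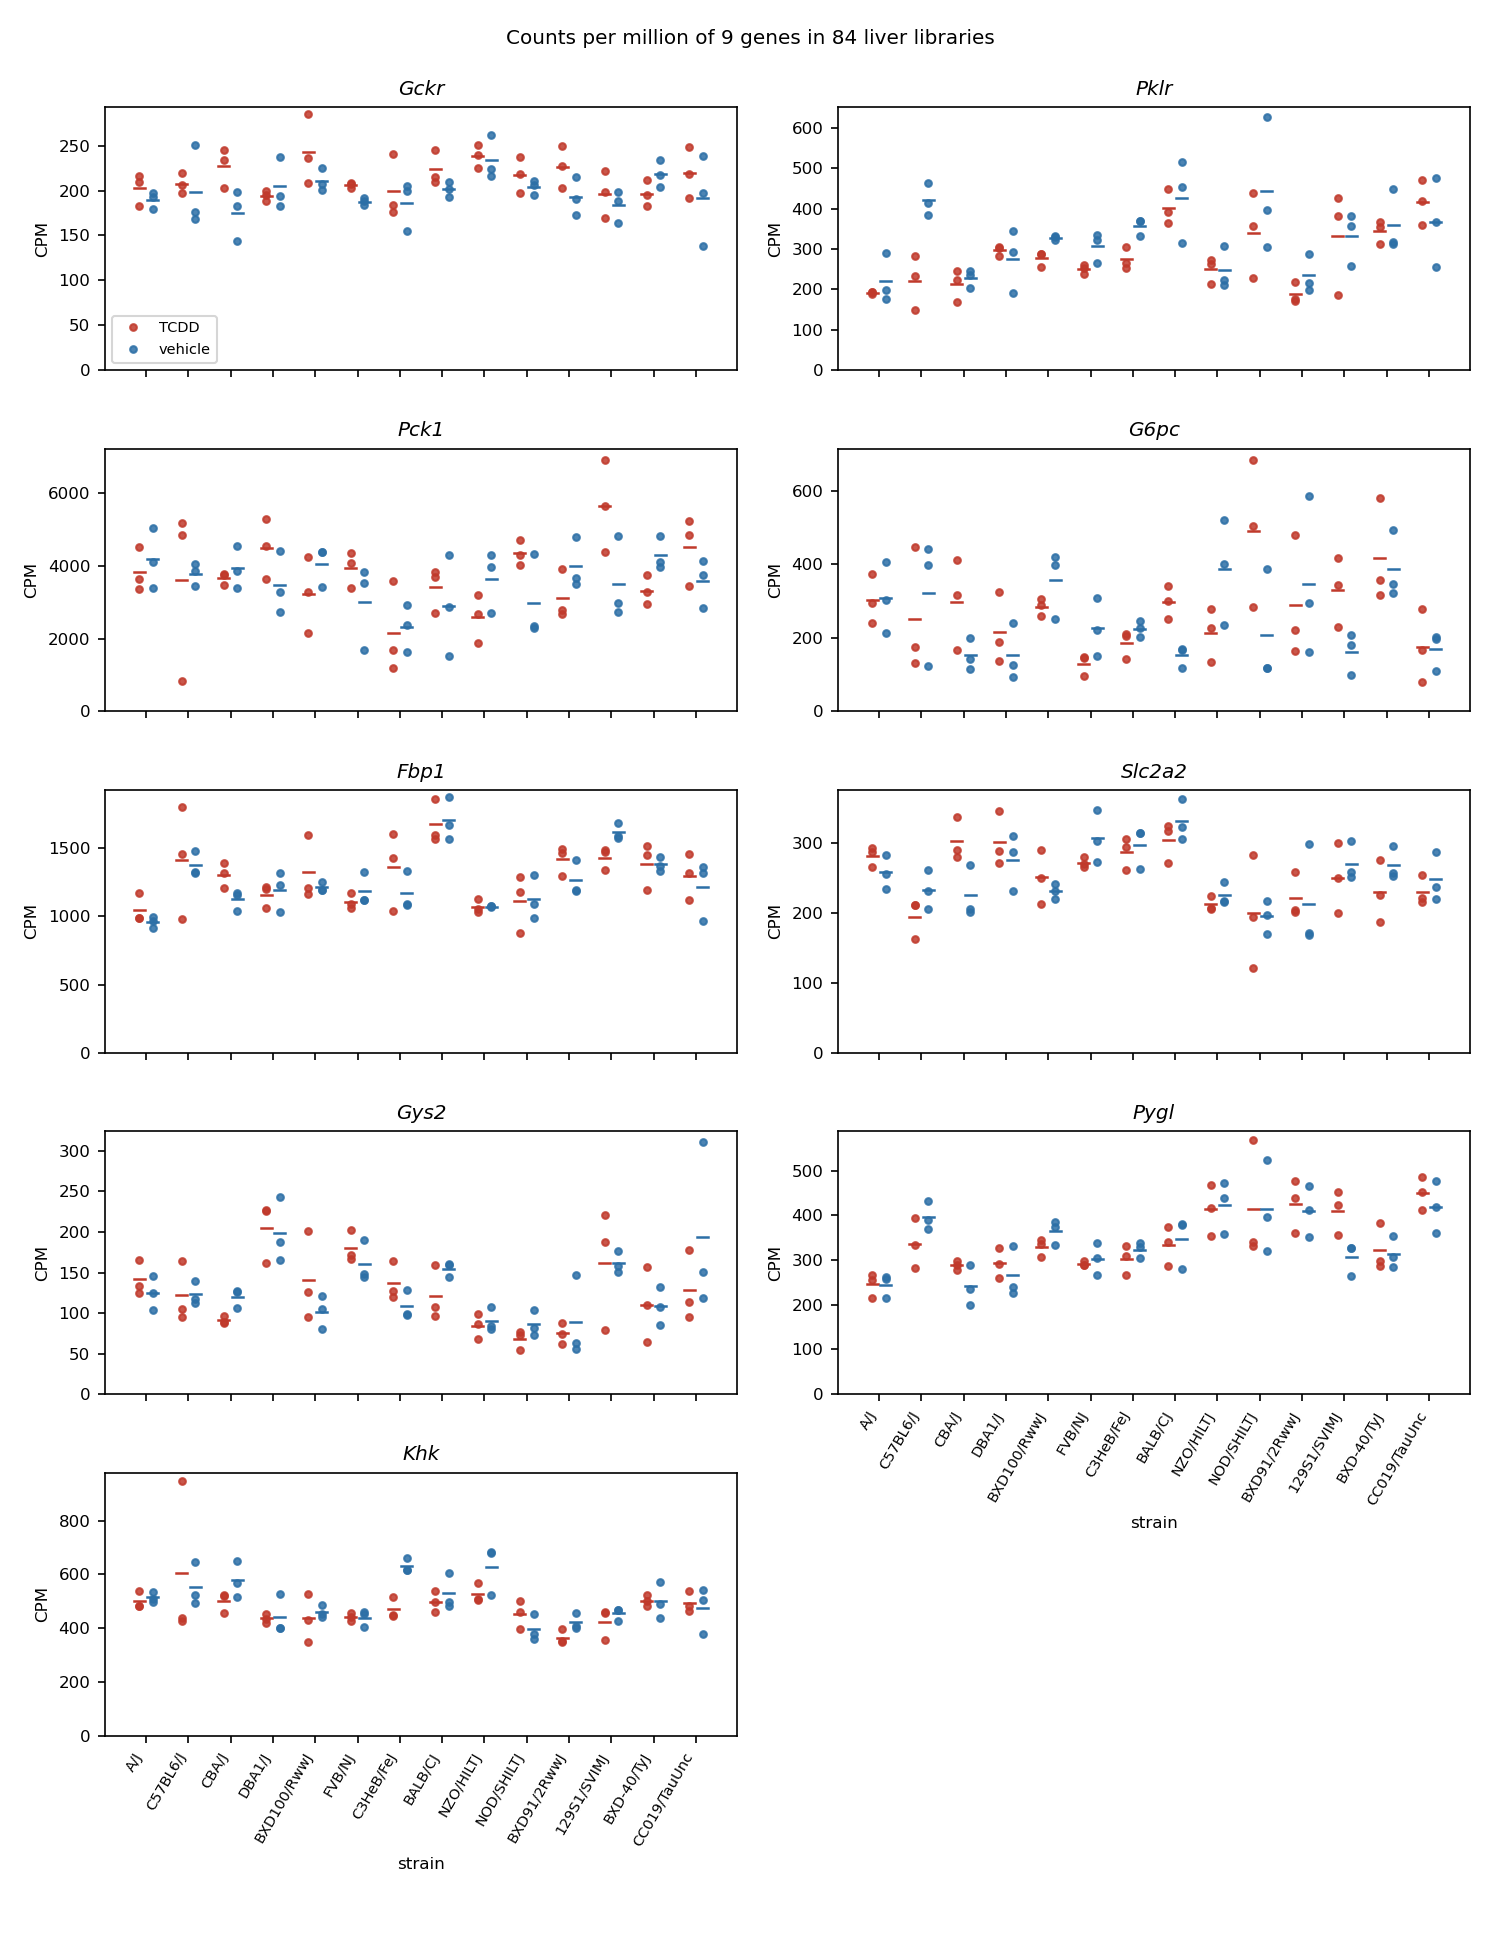
CPM (vertical axes, from 0) of each of the 9 genes in the 84 libraries, by strain (horizontal axis), with TCDD libraries in red left of vehicle libraries in blue; points are single libraries and short bars group means of 3. TCDD and vehicle points overlap in most strains, and C57BL6/J holds both the lowest Pck1 point and the highest Khk point, 844 and 948 CPM, of the same TCDD library.

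The first question was how TCDD changed the 9 genes on average over the strains. None was called: 0 of 9 passed an adjusted p of 0.05 in the edgeR quasi-likelihood test of the mean of the 14 within-strain log2 changes, where 29 of all 16195 genes (0.179%) did. At an unadjusted p below 0.05 stood 2 of the 9, Gckr and Pklr, and 5.94% of all genes, and DESeq2 called 0 of 9 too, against 0.260% of the genes it gave an adjusted p. The median size of the average log2 change was 0.057 over the 9 genes and 0.059 over all genes tested. Gckr was higher with TCDD in 12 of 14 strains, with an average log2 change of 0.12 ± 0.04 (SE, 84 libraries; 95% interval 0.05 to 0.19; adjusted p = 0.271, edgeR). Pklr was lower in 11 of 14, with −0.18 ± 0.07 (−0.32 to −0.05; adjusted p = 0.602, edgeR). Neither passed the adjusted threshold with any 1 library or any 1 strain left out. For the other 7 genes adjusted p-values ran from 0.923 to 1.00.

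**Figure D2:**
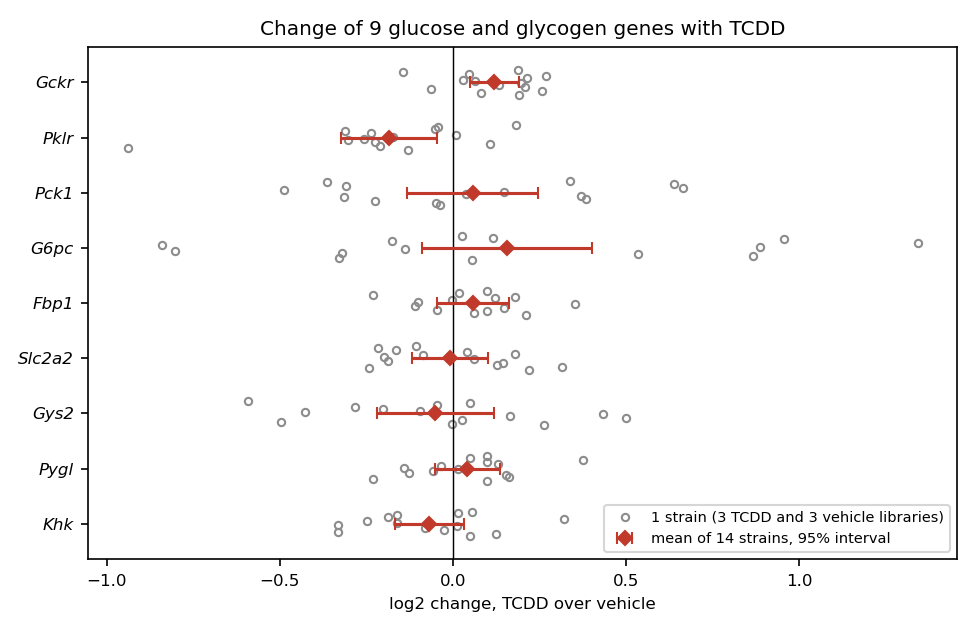
Log2 change of TCDD over vehicle (horizontal axis) of each gene, with 1 open circle per strain and a red diamond for the mean of 14 strains with its 95% interval. The intervals of Gckr and Pklr lie on 1 side of 0, no gene passed the adjusted threshold, and the strains scatter most for G6pc, from −0.84 to 1.34.

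The 95% intervals of the average change differed in width between the genes. For Slc2a2 the interval of the average change ran from −7.89% to +7.29%, for Fbp1 from −3.20% to +11.8%, for Pygl from −3.54% to +9.85% and for Khk from −11.0% to +2.23%. It was wider for the genes that vary most between like libraries, −14.2% to +8.62% for Gys2, −8.86% to +18.7% for Pck1 and −6.06% to +32.03% for G6pc. Within single strains 0 of 126 pairs of gene and strain were called, against 0.228% of all pairs, while DESeq2 called 2 of 126, against 0.539% of all pairs it tested, and 5 of 126 had an unadjusted p below 0.05, against 6.18% of all. The 3 TCDD libraries lay wholly above the 3 vehicle libraries in 7 pairs (5.55% of all pairs of gene and strain) and wholly below in 10 (5.92%). These overlaps are in CPM. On the TMM-scaled CPM that the test uses, which rescale each library, 10 pairs lay above (5.57% of all) and 9 below (5.60%). Of these, 4 and 6 were so on both scales. Apart after scaling only were Gckr in several strains, Fbp1 in A/J and Gys2 in C3HeB/FeJ, with TCDD above. Slc2a2 and Pygl in C57BL6/J and Khk in CBA/J were so with TCDD below. The pairs named next without overlap are in CPM unless the TMM scale is named, with those that overlap after scaling named as such. The test of strain by treatment, which asks whether the change depended on the strain, called 0 of 9, against 5 of 16195 genes (0.0309%). At an unadjusted p below 0.05 stood 1 of 9, G6pc, and 8.53% of all genes (adjusted p of G6pc = 0.509), and DESeq2 called 0 of 9 as well, against 1.19% of the genes it gave an adjusted p.

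Slc2a2 (ENSMUSG00000027690.7) and Gckr (ENSMUSG00000059434.5) serve glucose entry. Gckr stood at 169.7 to 286 CPM (median 209.7) over the TCDD libraries and 138.5 to 262.4 CPM (median 198) over the vehicle libraries, and the TCDD range was the narrowest of the 9 genes as a ratio of highest to lowest. Its ranges did not overlap in CBA/J, with 203, 234.4 and 245.7 CPM in TCDD against 198, 183 and 144.1 CPM in vehicle libraries, and in FVB/NJ, with 207, 203 and 209 CPM in TCDD against 192, 184 and 188 CPM in vehicle libraries. In both the TCDD libraries were the higher ones, and after TMM scaling FVB/NJ stayed apart while CBA/J overlapped. On the TMM scale alone, Gckr in TCDD libraries also lay wholly above vehicle in BXD100/RwwJ, C3HeB/FeJ, NOD/SHILTJ and BXD91/2RwwJ. The within-strain log2 changes ran from −0.15 ± 0.13 in BXD-40/TyJ to 0.27 ± 0.13 in BXD91/2RwwJ (SE), and their adjusted p-values did not pass. Slc2a2, the glucose transporter of the hepatocyte surface, stood at 121 to 345 CPM (median 263) in TCDD and 169 to 363 CPM (median 254) in vehicle libraries. TCDD was above vehicle without overlap in CBA/J, 290.0, 280.4 and 337 CPM in TCDD against 202, 206 and 268 CPM in vehicle libraries, with a log2 change of 0.32 ± 0.21 and an adjusted p of 0.709; after TMM scaling the groups overlapped. Over strains the average change of Slc2a2 was −0.0085 ± 0.06, higher in 7 strains and lower in 7.

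Pklr (ENSMUSG00000041237.6) and Khk (ENSMUSG00000029162.9) carry glycolysis and fructose use. In C57BL6/J, Pklr had 148.8, 283 and 232 CPM in the 3 TCDD libraries and 414, 465 and 384 CPM in the 3 vehicle libraries. The groups did not overlap, and the library labelled TCDD 3, whose Cyp1a1 stood near the vehicle level, lay among the TCDD ones. The log2 change was −0.94 ± 0.26 (SE; p = 6.2e-04, adjusted p = 0.0889, edgeR), short of the threshold; DESeq2 gave −0.91 with an adjusted p of 0.0483, and the authors' deposited table −0.91 with 0.0472. Without C57BL6/J TCDD 2 the pair was called, at −1.10 (0.0228), and without each of the other 5 libraries of the strain it was not, with adjusted p-values of 0.207 to 0.463. The highest of these was that of the fit without TCDD 3, where the log2 change was −0.97. TCDD lay below vehicle without overlap in 3 more strains. These were BXD100/RwwJ (288, 255 and 288 CPM in TCDD, 332, 328 and 321 CPM in vehicle libraries), FVB/NJ (260.4, 237 and 253 CPM in TCDD, 265, 335 and 322 CPM in vehicle libraries) and C3HeB/FeJ (306, 251.4 and 265 CPM in TCDD, 369, 370.1 and 332 CPM in vehicle libraries). After TMM scaling C57BL6/J and BXD100/RwwJ stayed apart, and FVB/NJ and C3HeB/FeJ overlapped. In no strain did TCDD lie wholly above vehicle for Pklr on either scale. The Pklr gene overlaps Hcn3, a channel gene on the other strand, by 711 bases from gene start to gene end (GENCODE M21). Overlap of their exons was not computed. With a kit that does not mark strand, reads there cannot be told apart, and ambiguous reads stayed out of totals. Khk, which phosphorylates fructose, stood at 349 to 948 CPM (median 460.3) in TCDD and 361 to 682 CPM (median 492) in vehicle libraries. Without overlap TCDD was below vehicle in C3HeB/FeJ (448, 517 and 444 CPM in TCDD, 618, 661 and 615 CPM in vehicle libraries) and BXD91/2RwwJ (349, 395 and 351 CPM in TCDD, 402, 455 and 407 CPM in vehicle libraries). Neither passed the adjusted threshold, and after TMM scaling BXD91/2RwwJ overlapped.

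Pck1 (ENSMUSG00000027513.5), Fbp1 (ENSMUSG00000069805.4) and G6pc (ENSMUSG00000078650.2) serve glucose production. Pck1, the first committed step, ran from 844 CPM in C57BL6/J TCDD 3 to 6928 CPM in 129S1/SVIMJ TCDD 1 (median 3728), and in vehicle libraries 1517 to 5042 CPM (median 3713). The highest and the lowest library of all 84 were thus both TCDD libraries, while the medians lay side by side. In C57BL6/J it stood at 4844, 5187 and 844 CPM in TCDD against 3852, 3439 and 4058 CPM in vehicle libraries. The 7 strains with higher and the 7 with lower Pck1 gave an average log2 change of 0.06 ± 0.10; without C57BL6/J TCDD 3 it was 0.09 and not called. TCDD was below vehicle without overlap in BXD-40/TyJ, 2941, 3272 and 3761 CPM in TCDD against 4838, 4099 and 3972 CPM in vehicle libraries (log2 change −0.36 ± 0.36, adjusted p = 0.712), where vehicle 1 is the library with adrenal markers. G6pc, whose product frees glucose from glucose 6-phosphate, ran over 79.0 to 684 CPM (median 268) in TCDD and 92.2 to 584 CPM (median 216.5) in vehicle libraries. In NOD/SHILTJ it had 503, 684 and 283 CPM in TCDD and 119, 386 and 117 CPM in vehicle libraries. The groups overlap through vehicle 2. The log2 change was 1.34 ± 0.47 (adjusted p = 0.0986, edgeR); without vehicle 2 it was 2.15 (0.100), and DESeq2 on all libraries gave 1.35 with an adjusted p of 0.0463. TCDD lay above vehicle without overlap in 129S1/SVIMJ (343, 228 and 417 CPM in TCDD, 206, 180.7 and 98.4 CPM in vehicle libraries) and BALB/CJ (341, 249.6 and 299 CPM in TCDD, 118, 170.3 and 166 CPM in vehicle libraries), and below in FVB/NJ (97.0, 146.4 and 145.9 CPM in TCDD, 149.1, 308 and 221 CPM in vehicle libraries). After TMM scaling 129S1/SVIMJ and BALB/CJ stayed apart and FVB/NJ overlapped, and no adjusted p was below 0.05. Fbp1 stood at 877 to 1864 CPM (median 1252) in TCDD and 919 to 1878 CPM (median 1213) in vehicle libraries, and its within-strain log2 changes ran from −0.23 ± 0.20 in 129S1/SVIMJ to 0.35 ± 0.20 in C3HeB/FeJ, where the value was 0.09 without TCDD 1 and 0.59 without TCDD 2.

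Gys2 (ENSMUSG00000030244.7) and Pygl (ENSMUSG00000021069.10) build and break glycogen. Gys2 stood at 54.8 to 227.1 CPM (median 112) in TCDD and 55.6 to 311 CPM (median 126) in vehicle libraries. Its within-strain log2 changes ran from −0.59 ± 0.32 in CC019/TauUnc, where CC019/TauUnc vehicle 1 alone reached 311 CPM, to 0.50 ± 0.32 in BXD100/RwwJ. Without CC019/TauUnc vehicle 1 the change there was −0.07, and without BXD100/RwwJ TCDD 3 it was 0.06 in that strain. In CBA/J the TCDD libraries, 96.3, 88.1 and 89.0 CPM, lay below the vehicle libraries, 107, 127 and 126 CPM. Pygl stood at 214 to 569 CPM (median 332) in TCDD and 200.3 to 523 CPM (median 335) in vehicle libraries. The groups were apart in 129S1/SVIMJ, 452, 357 and 423 CPM in TCDD and 327, 264 and 327 CPM in vehicle libraries, with a log2 change of 0.38 ± 0.18 (adjusted p = 1.00, edgeR). In 129S1/SVIMJ, the log2 change of G6pc was 0.96 ± 0.46 (adjusted p = 1.00, edgeR) and that of Fbp1 −0.23 ± 0.20 (adjusted p = 1.00). These 3 differences did not pass the adjusted threshold.

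Genes around the 9 in the same routes were not called either. Of 22 tested genes of glycolysis, 10 of gluconeogenesis, 20 of glycogen turnover, 7 of fructose and sorbitol use, 22 regulators of glucose metabolism, 6 ChREBP targets, 10 markers of the fed or fasted state and 18 clock genes, 0 were called in the average comparison or in the test of strain by treatment. Some genes stand in more than 1 list. Median average log2 changes of the lists lay between −0.078 (clock) and 0.022 (gluconeogenesis), beside −0.0033 over all genes tested. At an unadjusted p below 0.05 stood 3 of 20 glycogen genes, 3 of 18 clock genes and 1 of 22 glycolysis genes, against 5.94% of all genes. The other lists held 0 such genes. Among the smallest p-values were Phka2, a subunit of phosphorylase kinase, with 0.11 ± 0.04 (adjusted p = 0.579), Pgam1, a phosphoglycerate mutase, with 0.10 ± 0.05 (0.819), and the clock gene Cry1 with −0.40 ± 0.14 (0.579), all edgeR. Pck2, the mitochondrial partner of Pck1, had −0.14 ± 0.07 (0.843), and Ppp1r3b, which brings phosphatase to glycogen, −0.18 ± 0.09 (0.836). The other named genes of the lists were Creb1 (−0.19 ± 0.09), Pnpla3 (−0.17 ± 0.19), Aldoc (−0.12 ± 0.08), Foxa2 (−0.11 ± 0.07), Srebf1 (−0.08 ± 0.08), Glyctk (−0.05 ± 0.05), Tkfc (−0.04 ± 0.06), Arrdc4 (−0.04 ± 0.07) and Mdh1 (0.04 ± 0.03), with adjusted p-values of 0.839 to 0.995. None of these passed. Within single strains, NOD/SHILTJ, where 1.91% of all genes were called, had Pgam1 (0.67 ± 0.17, adjusted p = 0.0313) and the malate dehydrogenase gene Mdh1 (0.49 ± 0.12, 0.0257) called higher. A/J, where 0.494% were, had Hk2 (−2.45 ± 0.54, 0.0126), Ldhb (−3.09 ± 0.78, 0.0420) and the muscle phosphorylase gene Pygm (−4.35 ± 0.88, 0.00719) called lower, with muscle markers in A/J vehicle 2. Without that library and the other 2 that stand apart the log2 changes in A/J were −1.18 (adjusted p = 0.853) for Hk2, 0.71 (adjusted p = 1.00) for Ldhb and −0.20 (adjusted p = 1.00) for Pygm, and none passed.

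The second comparison asked whether the level of the 9 genes depended on the strain. Among the 14 TCDD groups 5 of 9 genes differed (45.3% of all genes tested did), namely Gys2 (adjusted p = 2.9e-04, edgeR quasi-likelihood test on 13 contrasts), Pygl (3.8e-04), Pklr (0.00102), Slc2a2 (0.0131) and G6pc (0.0459). Khk (0.0552), Fbp1 (0.121), Pck1 (0.130) and Gckr (0.282) did not pass. Among the 14 vehicle groups, in other libraries, 7 of 9 differed (46.8% of all), namely Pygl (2.2e-04), Khk (0.00128), Gys2 (0.00170), Pklr (0.00476), Fbp1 (0.0189), G6pc (0.0216) and Slc2a2 (0.0273), and Gckr (0.569) and Pck1 (0.5) did not pass. Leaving out single libraries gave 4 to 7 calls among TCDD groups and 6 or 7 among vehicle groups. Among TCDD groups G6pc, just inside the threshold, did not pass in 20 of these fits, with adjusted p up to 0.118 without NOD/SHILTJ TCDD 2. Fbp1 passed without C3HeB/FeJ TCDD 2, Khk without that library, C57BL6/J TCDD 1 or 2 or CBA/J TCDD 2, and Pck1 without C3HeB/FeJ TCDD 3. Among vehicle groups Slc2a2 did not pass without FVB/NJ vehicle 3, BALB/CJ vehicle 2 or NOD/SHILTJ vehicle 1 or 3 (adjusted p up to 0.0887), nor Fbp1 without 129S1/SVIMJ vehicle 2 (0.0585). Without C57BL6/J TCDD 3, Pck1 passed among the TCDD groups (adjusted p = 0.0173). Without the BXD lines and CC019/TauUnc, whose alignment references differ from the rest, 3 of 9 passed among TCDD groups, where Pklr (0.0566) and G6pc (0.0551) did not, and 6 of 9 among vehicle groups, where G6pc (0.062) did not. The share of all genes called in the fits that leave libraries or strains out is not given. Whether these shifts are particular to the 9 genes was not tested.

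Other genes of the same routes differed between strains too. Among the TCDD groups, beside 45.3% of all genes, 11 of 22 genes of glycolysis were called, 7 of 10 of gluconeogenesis, 9 of 20 of glycogen turnover, 5 of 7 of fructose and sorbitol use, 8 of 22 regulators, 4 of 6 ChREBP targets, 6 of 10 markers of the fed or fasted state and 11 of 18 clock genes. Among the vehicle groups, beside 46.8% of all genes, the counts in the same order were 15 of 22, 6 of 10, 9 of 20, 7 of 7, 5 of 22, 5 of 6, 4 of 10 and 9 of 18. The smallest p of each list belonged in both treatments to Pgk1, which makes ATP in glycolysis (adjusted p = 1.3e-24 among TCDD groups and 1.1e-23 among vehicle groups, edgeR), Pck2 (6.0e-11 among TCDD and 4.6e-12 among vehicle groups), Akr1b3, the aldose reductase that makes sorbitol (6.2e-08 among TCDD and 3.5e-11 among vehicle groups), the lipid droplet gene Pnpla3 (2.9e-05 among TCDD and 1.8e-07 among vehicle groups), the fatty acid hydroxylase gene Cyp4a14 (3.6e-08 among TCDD and 2.1e-06 among vehicle groups) and the clock repressor Bhlhe41 (2.4e-09 among TCDD and 2.2e-09 among vehicle groups). For glycogen it was Gbe1, the branching enzyme, among TCDD groups (4.4e-06) and Pygm among vehicle groups (1.7e-09, with the muscle markers of A/J vehicle 2), and for the regulators Foxa2 among TCDD groups (0.00206). The second smallest among vehicle groups were those of Pkm (2.4e-08), Gpt (0.00102), Gbe1 (4.1e-04), Sord (3.2e-06), Cebpa (0.00222), Acly (4.8e-04) and Npas2 (6.5e-08).

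The order of strains, as means ± SD of 3 libraries, differed from gene to gene, and in part with the scale: on TMM-scaled log2 CPM the highest strain was the same as in CPM in 13 of 18 pairs of gene and treatment and the lowest in 11. The values that follow are CPM. Gys2 was highest in DBA1/J (205 ± 37.6 CPM) and lowest in NOD/SHILTJ (67.9 ± 11.4 CPM) among the TCDD groups, and in vehicle groups highest in DBA1/J (199 ± 39.9 CPM) and lowest in NOD/SHILTJ (85.9 ± 15.6 CPM). In CPM the same strains held both ends in both treatments, in separate libraries, while after TMM scaling BXD91/2RwwJ was lowest among the vehicle groups. Pygl was highest in CC019/TauUnc (450.4 ± 37.1 CPM) and lowest in A/J (245.7 ± 27.8 CPM) among the TCDD groups, and in vehicle groups highest in NZO/HILTJ (423 ± 58.7 CPM) and lowest in CBA/J (242 ± 45.1 CPM). After TMM scaling CC019/TauUnc was highest and A/J lowest for Pygl in both treatments. Pklr was highest in CC019/TauUnc (416 ± 55.8 CPM) and lowest in BXD91/2RwwJ (188 ± 25.6 CPM) among the TCDD groups, and in vehicle groups highest in NOD/SHILTJ (443 ± 166 CPM) and lowest in A/J (221.6 ± 60.05 CPM). CC019/TauUnc led both genes among the TCDD groups. Khk was highest in C57BL6/J (604 ± 298 CPM) and lowest in BXD91/2RwwJ (365 ± 26.1 CPM) among the TCDD groups, and in vehicle groups highest in C3HeB/FeJ (631 ± 25.5 CPM) and lowest in NOD/SHILTJ (397 ± 49.5 CPM). The mean of C57BL6/J there rests on TCDD 3. Slc2a2 was highest in BALB/CJ (304 ± 28.9 CPM) and lowest in C57BL6/J (194.7 ± 28.1 CPM) among the TCDD groups, and in vehicle groups highest in BALB/CJ (331 ± 29.6 CPM) and lowest in NOD/SHILTJ (194.8 ± 23.6 CPM). Fbp1 was highest in BALB/CJ (1678 ± 162.6 CPM) and lowest in A/J (1049.5 ± 103 CPM) among the TCDD groups, and in vehicle groups highest in BALB/CJ (1706 ± 157.7 CPM) and lowest in A/J (960.4 ± 39.3 CPM). In CPM BALB/CJ led both genes in both treatments, while after TMM scaling C3HeB/FeJ led Slc2a2 among TCDD groups and 129S1/SVIMJ led Fbp1 among vehicle groups. G6pc was highest in NOD/SHILTJ (490.0 ± 201 CPM) and lowest in FVB/NJ (129.8 ± 28.4 CPM) among the TCDD groups, and in vehicle groups highest in BXD-40/TyJ (387 ± 92.5 CPM) and lowest in BALB/CJ (152 ± 28.9 CPM). Pck1 was highest in 129S1/SVIMJ (5656 ± 1269 CPM) and lowest in C3HeB/FeJ (2153 ± 1260.3 CPM) among the TCDD groups, and in vehicle groups highest in BXD-40/TyJ (4303 ± 468 CPM) and lowest in C3HeB/FeJ (2314 ± 652 CPM). For Pck1, C3HeB/FeJ was lowest in both. Gckr was highest in BXD100/RwwJ (244 ± 39.04 CPM) and lowest in DBA1/J (194 ± 5.75 CPM) among the TCDD groups, and in vehicle groups highest in NZO/HILTJ (233.9 ± 24.9 CPM) and lowest in CBA/J (174.97 ± 27.8 CPM). The highest strain was 1.25 to 3.78 times the lowest in CPM. Other ends also changed after TMM scaling. Among vehicle groups C57BL6/J was then highest for Pklr and CBA/J for Pck1, and DBA1/J was lowest for G6pc and BXD91/2RwwJ for Gckr. Among TCDD groups 129S1/SVIMJ was then lowest for Gckr, NZO/HILTJ for Fbp1 and NOD/SHILTJ for Slc2a2. Between neighbours in the CPM orders the 3-library ranges overlapped in all 13 pairs of each gene and treatment, except for 2 pairs of Fbp1 in vehicle groups, 1 of Fbp1 in TCDD groups and 1 of Pygl in TCDD groups. After TMM scaling the exceptions were 1 pair each of Fbp1 and Gys2 in vehicle groups and of Pck1 and Gys2 in TCDD groups. On both scales the order within the middle is not resolved.

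Each strain was then set against the mean of the other 13 within a treatment. Among TCDD groups 8 of 126 pairs of gene and strain were called (8.44% of all pairs), 5 higher (5.27% of all) and 3 lower (3.18%), and among vehicle groups 11 of 126 (8.94%), 7 higher (5.56%) and 4 lower (3.38%); as shares these lie near the background. Values are the mean of the strain against the mean of the other 13, the log2 difference ± SE and the adjusted p of edgeR. The CPM means are not TMM-scaled, while the log2 difference and its p come from the TMM-scaled fit. The log2 difference can therefore depart from what the CPM means give. Among vehicle groups it was larger for Khk in CBA/J and smaller for Fbp1 in BALB/CJ. Gys2 was high in DBA1/J, in TCDD groups (205 against 120.1 CPM, log2 0.80 ± 0.22, adjusted p = 0.0123) and in vehicle groups (199 against 124.8 CPM, log2 0.71 ± 0.22, adjusted p = 0.0373). It was low in NOD/SHILTJ, in TCDD groups (67.9 against 131 CPM, log2 −0.86 ± 0.25, adjusted p = 0.0187) and in vehicle groups (85.9 against 133 CPM, log2 −0.70 ± 0.25, adjusted p = 0.0494). Gys2 encodes the liver form of glycogen synthase. Pygl was low in A/J, in TCDD groups (245.7 against 354 CPM, log2 −0.42 ± 0.13, adjusted p = 0.0346) and in vehicle groups (245 against 348 CPM, log2 −0.49 ± 0.14, adjusted p = 0.0102), and high in CC019/TauUnc, in TCDD groups (450.4 against 339 CPM, log2 0.44 ± 0.12, adjusted p = 0.0119) and in vehicle groups (419 against 335 CPM, log2 0.38 ± 0.12, adjusted p = 0.0299). These 4 of 126 pairs were called the same way in both treatments, against 4.19% of all pairs. Among TCDD groups Pklr was called high in CC019/TauUnc (416 against 275 CPM, log2 0.65 ± 0.18, adjusted p = 0.00923) and low in BXD91/2RwwJ (188 against 293 CPM, log2 −0.64 ± 0.20, adjusted p = 0.0440). Their vehicle differences had the same sign, 0.26 ± 0.18 in CC019/TauUnc and −0.50 ± 0.20 in BXD91/2RwwJ, and were not called. G6pc was high in NOD/SHILTJ in TCDD groups (490.0 against 261 CPM, log2 0.96 ± 0.31, adjusted p = 0.0349), while its vehicle difference there was −0.32 ± 0.35, with the other sign. Among vehicle groups NOD/SHILTJ was low for Slc2a2 (194.8 against 260.2 CPM, log2 −0.52 ± 0.16, adjusted p = 0.0194) and Khk (397 against 509.9 CPM, log2 −0.46 ± 0.14, adjusted p = 0.0225). Fbp1 was high in BALB/CJ (1706 against 1224 CPM, log2 0.42 ± 0.14, adjusted p = 0.0451) and 129S1/SVIMJ (1619 against 1231 CPM, log2 0.44 ± 0.14, adjusted p = 0.0325), Khk in CBA/J (579 against 496 CPM, log2 0.42 ± 0.13, adjusted p = 0.0174) and C3HeB/FeJ (631 against 492 CPM, log2 0.44 ± 0.13, adjusted p = 0.0239), and Gys2 in CC019/TauUnc (194 against 125.2 CPM, log2 0.70 ± 0.22, adjusted p = 0.0215). Khk in C57BL6/J was called high in TCDD groups (604 against 465 CPM, log2 0.39 ± 0.13, adjusted p = 0.0336) but rests on the library labelled TCDD 3: without it the log2 difference was −0.11 and not called. All 11 vehicle pairs had the same sign among TCDD groups, and 7 of the 8 TCDD pairs the same sign among vehicle groups.

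**Figure D3:**
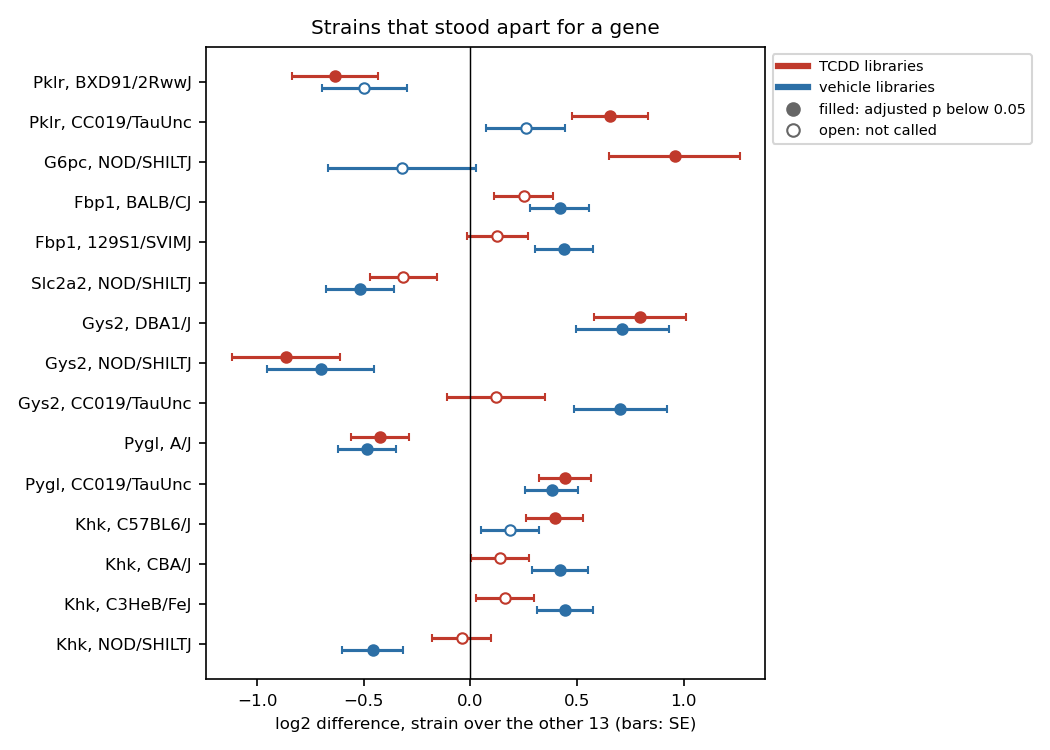
Log2 difference of a strain over the other 13 strains (horizontal axis, bars are SE) for the 15 pairs of gene and strain called in either treatment, with TCDD libraries in red above vehicle libraries in blue; filled points passed an adjusted p of 0.05. Gys2 in DBA1/J and NOD/SHILTJ and Pygl in A/J and CC019/TauUnc are filled in both colours, and G6pc in NOD/SHILTJ lies on opposite sides of 0.

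Each of these calls ended when at least 1 library of its strain was left out. Among TCDD groups, leaving out any 1 library of the strain ended the calls of Pygl in A/J (adjusted p 0.0733 to 0.339) and Pklr in BXD91/2RwwJ (0.0933 to 0.276). The call of Gys2 in DBA1/J ended without TCDD 2 or 3 (up to 0.142), of Gys2 in NOD/SHILTJ without TCDD 2 (0.259), of G6pc in NOD/SHILTJ without TCDD 1 or 2 (up to 0.364), of Pygl in CC019/TauUnc without TCDD 1 or 2 (up to 0.147) and of Pklr in CC019/TauUnc without TCDD 2 or 3 (up to 0.221). Among vehicle groups any 1 library left out ended the calls of Khk in C3HeB/FeJ (0.0525 to 0.362), Fbp1 in BALB/CJ (0.111 to 0.228) and 129S1/SVIMJ (0.0687 to 0.215), and Slc2a2 (0.0594 to 0.142) and Gys2 (0.103 to 0.205) in NOD/SHILTJ. Gys2 in CC019/TauUnc rests on vehicle 1, without which the log2 difference was 0.18 (adjusted p = 0.810), Gys2 in DBA1/J on vehicle 1 (0.44, 0.477 without it), and Khk in CBA/J on vehicle 1 (0.23, 0.518). The call of Gys2 in DBA1/J also ended without vehicle 2, where the difference was 0.80 (0.0855). The calls of Pygl in A/J ended without vehicle 2 or 3 (up to 0.134), of Pygl in CC019/TauUnc without vehicle 1 or 3 (up to 0.291) and of Khk in NOD/SHILTJ without vehicle 1 or 2 (up to 0.223). Without 1 of the other 39 libraries of the treatment, Gys2 in NOD/SHILTJ lost its vehicle call in 26 fits, Fbp1 in BALB/CJ in 4, and Pklr in BXD91/2RwwJ its TCDD call in 22. Over these fits no difference changed sign except that of Khk in C57BL6/J.

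Strain means in the TCDD libraries were set against those in the vehicle libraries over the 14 strains, as mean log2 CPM, to see whether the order of strains held in separate libraries (two-sided, 100000 permutations). The correlation passed for 6 of 9 genes after adjustment over the 9. The lowest r of these 6 was 0.666, for Pklr, and 29.4% of all 16195 genes had an r at least as high. Pygl had r = 0.819 (permutation p = 4.9e-04, adjusted over 9 genes 0.00382) and rho = 0.890 (5.0e-05, adjusted 4.5e-04), Fbp1 r = 0.764 (permutation p = 8.5e-04, adjusted over 9 genes 0.00382) and rho = 0.815 (7.3e-04, adjusted 0.00328), and Gys2 r = 0.763 (permutation p = 0.00194, adjusted over 9 genes 0.00582) and rho = 0.679 (0.00941, adjusted 0.0212). Khk had r = 0.713 (permutation p = 0.00379, adjusted over 9 genes 0.00850) and rho = 0.771 (0.00204, adjusted 0.00612), Slc2a2 r = 0.711 (permutation p = 0.00472, adjusted over 9 genes 0.00850) and rho = 0.662 (0.0126, adjusted 0.0226), and Pklr r = 0.666 (permutation p = 0.0102, adjusted over 9 genes 0.0153) and rho = 0.640 (0.0157, adjusted 0.0235). Without the 2 strains farthest from the median TCDD mean, r was 0.710 for Pygl, 0.773 for Fbp1, 0.585 for Gys2, 0.705 for Khk, 0.544 for Slc2a2 and 0.584 for Pklr. Over the 10 strains other than the BXD lines and CC019/TauUnc it was 0.769, 0.794, 0.799, 0.704, 0.730 and 0.577 in the same order, and those 4 lines are too few for a value of their own. For the other 3 genes the relation did not pass: G6pc had r = 0.0830 (permutation p = 0.776; 0.285 without 2 strains, −0.287 over 10), Pck1 r = 0.182 (0.530; −0.164, 0.290) and Gckr r = 0.235 (0.429; 0.216, 0.472). Whether the relations differ between genes was not tested.

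**Figure D4:**
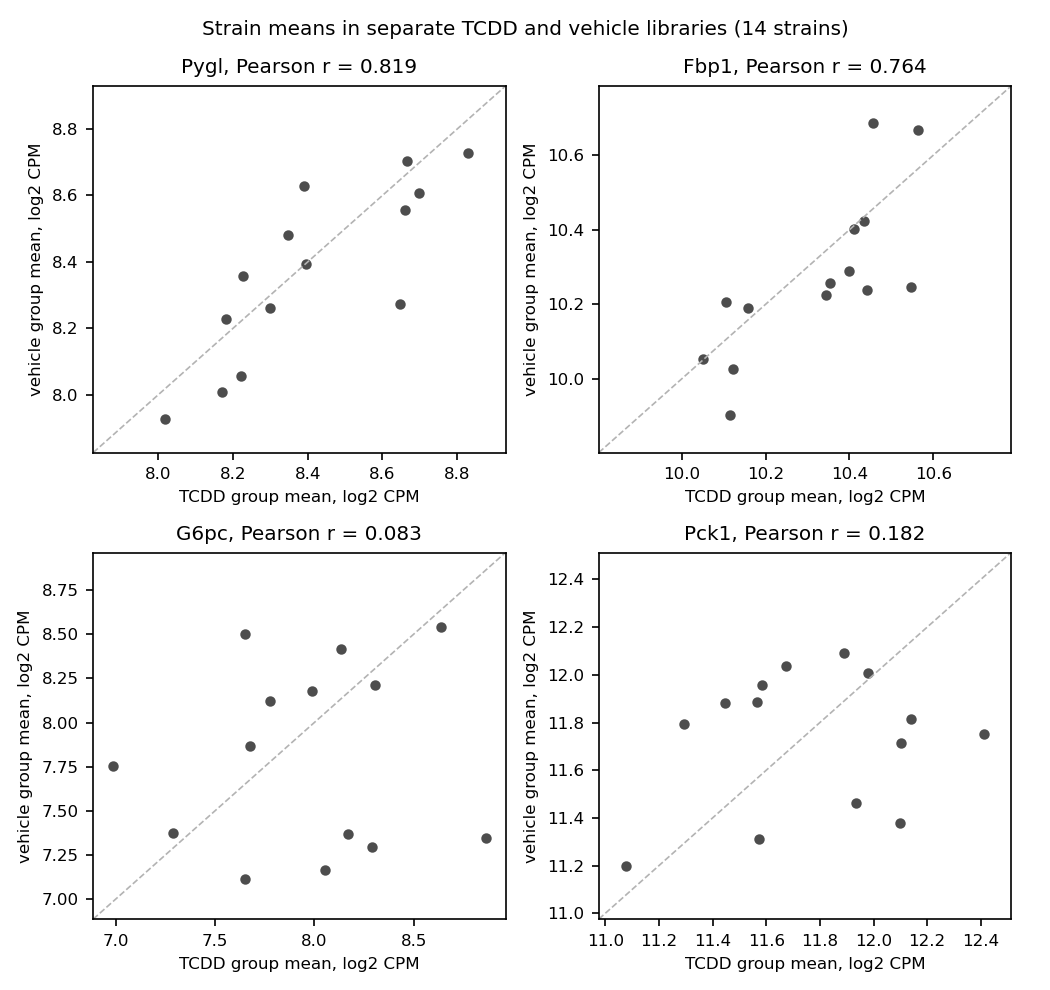
Mean log2 CPM of the 3 TCDD libraries (horizontal axis) and of the 3 vehicle libraries (vertical axis) of each of 14 strains, for 4 genes; the dashed line marks equal means. Strains lie along the line for Pygl (r = 0.819) and Fbp1 (0.764) and scatter for G6pc (0.083) and Pck1 (0.182).

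Like libraries differed little in Gckr and widely in G6pc and Pck1. The pooled SD of log2 CPM within the 28 groups (56 residual degrees of freedom) had a median of 0.25 over the 7826 genes above 10 CPM. Among these genes the within-group SD and its percentile were 0.58 (96.8) for G6pc, 0.47 (91.3) for Pck1, 0.40 (85.1) for Gys2, 0.33 (73.7) for Pklr, 0.26 (52.3) for Slc2a2, 0.24 (45.2) for Fbp1, 0.23 (37.5) for Khk, 0.21 (29.5) for Pygl and 0.15 (3.64) for Gckr. Single groups stood out: the SD was 1.48 for Pck1 and 0.67 for Khk in the TCDD group of C57BL6/J, through the library labelled TCDD 3, and 0.97 for G6pc in the vehicle group of NOD/SHILTJ and 0.94 for Gys2 in that of BXD91/2RwwJ.

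Within groups, libraries high in G6pc or Pck1 were high in Igfbp1, and those high in Pck1 also in Per1. The measure is each library's deviation in log2 CPM from the mean of its 3-library group, which removes strain and treatment, over 84 libraries, where the 3 deviations of a group sum to 0; libraries were permuted within groups (two-sided, 100000 permutations, of which 1e-05 is the smallest p), and p-values were adjusted over 54 pairs with 6 other genes and 36 pairs among the 9. Igfbp1 and Per1 were chosen after their values were seen. The adjustment covers the listed pairs only and does not make up for that choice. How many of all genes have such an r with G6pc or Pck1 was not computed. Igfbp1, a secreted binding protein known to rise in fasting liver, stood at 8.99 to 882 CPM (median 227.3) in TCDD and 4.92 to 1059.5 CPM (median 180.3) in vehicle libraries. G6pc went with it at r = 0.745 and rho = 0.788 (adjusted p = 1.8e-04 for r and 2.7e-04 for rho, permutation), 0.722 without the 2 most extreme libraries, 0.761 in TCDD and 0.738 in vehicle libraries. Pck1 went with Igfbp1 at r = 0.717 and rho = 0.598 (adjusted p = 1.8e-04 and 5.4e-04), 0.666 without 2 libraries, 0.742 in TCDD and 0.736 in vehicle libraries. Pck1 also went with the clock gene Per1, at r = 0.695 and rho = 0.742 (1.8e-04 and 2.7e-04), 0.716 without 2 libraries, 0.662 in TCDD and 0.752 in vehicle libraries. Both relations were there in each treatment. Pck1 and G6pc had r = 0.395 and rho = 0.350 (adjusted p = 0.0181 and 0.0328; r 0.362 without 2 libraries). Igfbp1 ranged over 98.1-fold in TCDD and 215-fold in vehicle libraries, Per1 over 12.3-fold in TCDD and 6.78-fold in vehicle libraries. The hour of killing and the time since the last meal are not given in the sources used here, and their part in these relations was not tested.

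**Figure D5:**
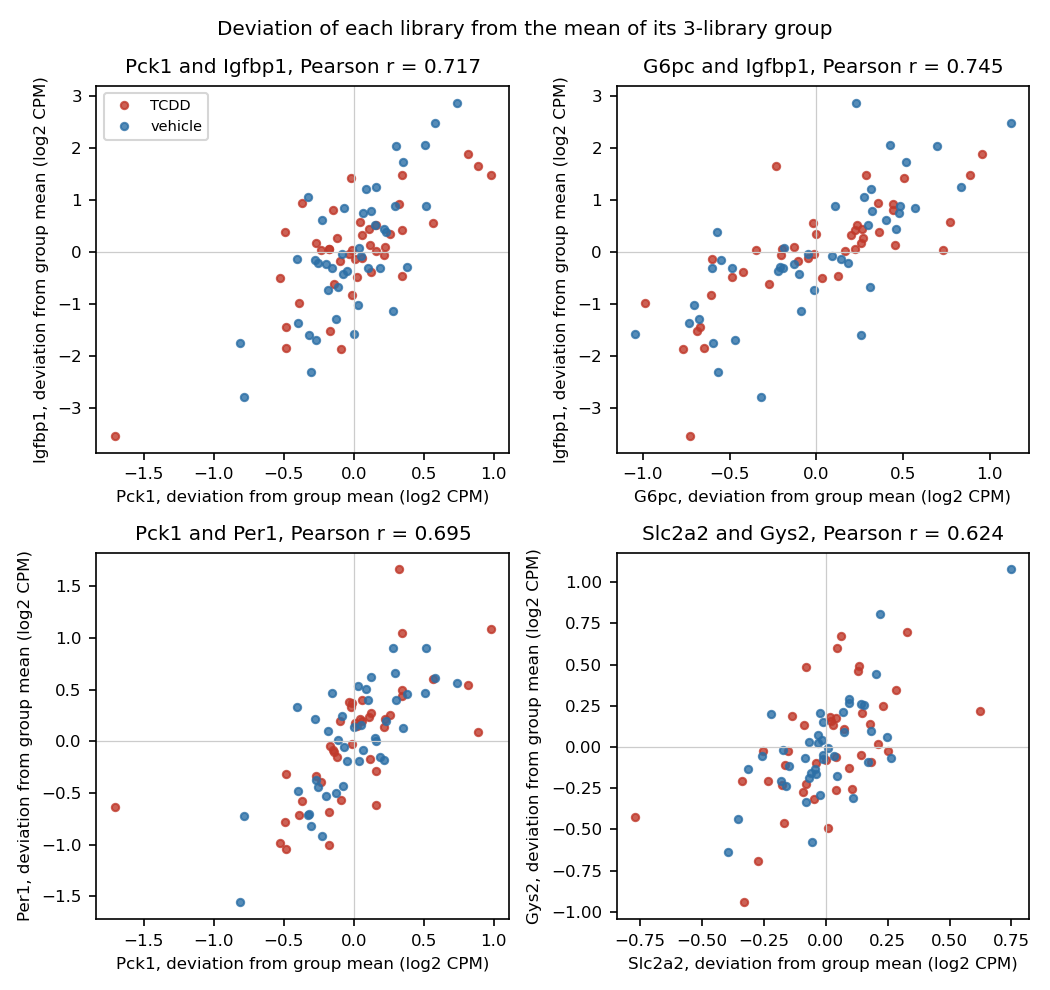
Deviation of each of 84 libraries from its group mean in log2 CPM, gene against gene, with TCDD libraries in red and vehicle libraries in blue. Points rise together for Pck1 and Igfbp1 (r = 0.717), G6pc and Igfbp1 (0.745), Pck1 and Per1 (0.695) and Slc2a2 and Gys2 (0.624), in both colours.

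Among the 9 genes themselves, the glucose transporter went with glycogen synthase. Slc2a2 and Gys2 had r = 0.624 and rho = 0.583 (adjusted p = 0.00216 for r and 9.6e-04 for rho, permutation), 0.558 without 2 libraries, 0.555 in TCDD and 0.712 in vehicle libraries. Gys2 also went with Dbp, a transcription factor that the clock drives (r = 0.661, rho = 0.508, adjusted p = 0.00189 and 0.00459, r without 2 = 0.536), and so did Slc2a2 (r = 0.539, rho = 0.417, adjusted p = 0.0209 and 0.0176, r without 2 = 0.443). Pklr went with Slc2a2 (r = 0.539, rho = 0.489, adjusted p = 0.00630 and 0.00450, r without 2 = 0.520), Fbp1 (r = 0.508, rho = 0.510, adjusted p = 0.00348 and 9.6e-04, r without 2 = 0.482), Khk (r = 0.506, rho = 0.553, adjusted p = 0.00348 and 9.6e-04, r without 2 = 0.467) and Pygl (r = 0.485, rho = 0.442, adjusted p = 0.00778 and 0.00480, r without 2 = 0.508), and Fbp1 with Slc2a2 (r = 0.504, rho = 0.445, adjusted p = 0.00996 and 0.00864, r without 2 = 0.537). With Nr1d1, a clock repressor, G6pc went the other way (r = −0.377, rho = −0.384, adjusted p = 0.0255 and 0.0258, r without 2 = −0.374), while Pklr (r = 0.393, rho = 0.421, adjusted p = 0.0177 and 0.00837, r without 2 = 0.422), Gckr (r = 0.365, rho = 0.348, adjusted p = 0.0184 and 0.0347, r without 2 = 0.344) and Pygl (r = 0.333, rho = 0.324, adjusted p = 0.0255 and 0.0415, r without 2 = 0.332) went with it. By treatment, r with Nr1d1 was 0.125 in TCDD and 0.583 in vehicle libraries for Pklr, 0.170 in TCDD and 0.454 in vehicle libraries for Gckr, 0.448 in TCDD and 0.245 in vehicle libraries for Pygl and −0.302 in TCDD and −0.439 in vehicle libraries for G6pc; whether r differs between treatments was not tested. Over the other pairs of the 9 genes and the pairs with Dbp given here, r was 0.323 to 0.732 in TCDD and 0.485 to 0.712 in vehicle libraries. All p-values here are two-sided permutation values within groups, given for r and then for rho, and r without 2 leaves out the 2 libraries with the most extreme deviation of the gene of the 9 (of 1 of the 2, within pairs). Libraries share their depth and the scaling that turns counts into CPM. Dbp and Nr1d1 were chosen after their values were seen, which the adjustment does not make up for. The share of all gene pairs with such an r was not computed.

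Across the means of the 28 groups, the named genes whose pattern was most like each of the 9, of 11563 genes with a mean of at least 1 CPM, were found by Pearson correlation of log2 CPM. These values are a description without a test; the 28 means share strains and alignment references. For Gckr they were Dennd2d (0.715) and Plgrkt (0.706), for Slc2a2 Fam20b (0.830) and Ip6k1 (0.818), for Pklr Hcn3 (0.902) and Inf2 (0.643) and for Khk Tmem9 (0.785) and Mettl7b (0.766). The first of the Pklr genes is the one that overlaps it on the other strand. For Pck1 they were Tat (0.833) and Tsc22d3 (0.780), for G6pc Igfbp1 (0.795) and Ddit4 (0.720) and for Fbp1 Tbc1d30 (0.775) and Fh1 (0.767). Tat encodes tyrosine aminotransferase, which breaks down an amino acid, and Fh1 fumarase. For Gys2 they were Pcsk4 (0.875) and Usp2 (0.819) and for Pygl Aasdh (0.777) and Rsph3b (0.740).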

How the data were processed

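Livers of mice labelled as pregnant were sequenced as 84 libraries in 28 groups of strain and treatment, 3 a group. The NEBNext Ultra RNA kit, which does not mark strand, was used on RNA of integrity number 7 or higher, per the labels' protocols. Per the submitters' processing notes, FastQC 0.11.5, Trimmomatic 0.38, Bowtie2 2.3.2.25, HTSeq 0.6.1 and DESeq2 (given as version 3.8) were used with build mm9. The authors deposited unnormalized counts for each gene. They also deposited, for each strain, log2 fold changes with p-values and adjusted p-values, per the file headers. Of 37310 IDs, 26400 were named by the authors' table, 8279 by a reference table and 2631 not at all. Reads in no gene (46.7% to 52.6%), not unique (3.74% to 10.2%) or ambiguous (0.442% to 1.41%) stayed out of totals. Reads that were not unique made up 3.74% to 4.35% in the libraries of the BXD lines. In all other libraries, CC019/TauUnc included, they made up 7.80% to 10.2%. The part of this in the differences between strains was not tested.

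Tests used edgeR 4.0.16 and limma 3.58.1 in R 4.3.3: filterByExpr (16195 genes), TMM factors (0.775 to 1.164) and a robust quasi-likelihood fit on 28 groups (common dispersion 0.0651), with Benjamini-Hochberg adjustment over all genes within a contrast and a call at 0.05. Contrasts were the mean TCDD effect, each strain's effect, strain by treatment, the strains within each treatment, and each strain against the other 13. CPM divide by total gene counts. Overlaps and strain orders were also read on TMM-scaled CPM, added after the data were seen. For log2 CPM the totals were TMM-scaled and the prior count was 1. Exon lengths are unions of GENCODE M21. Alternatives were DESeq2 1.42.0, median-ratio size factors, no filter, no robust estimation, an additive model, separate fits by strain or treatment, and fits without single libraries, single strains, the BXD lines with CC019/TauUnc, or the libraries that stand apart. Fits without 1 library kept the genes and dispersion trend of the full fit, and comparisons that library takes no part in kept their values from the full fit.

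The 9 genes, the gene lists and the naming rule were chosen with earlier results of these data known. The rule names the 9 genes, Cyp1a1, the genes of each list called in the average or strain by treatment test or else the 2 with the smallest p (likewise among vehicle groups), and the 2 genes most like each of the 9. Igfbp1, Per1, Dbp and Nr1d1, the list genes named among TCDD groups or within a strain, the 5 pairs of gene and strain with an unadjusted p below 0.05 and the libraries that stand apart were chosen after their values were seen. Some genes that the rule names are not reported here.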

Additional observations from a re-analysis of the deposited data

How the results depend on the processing

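No paired analysis was possible because the labels number no replicates and the numbers used here only name libraries. The average comparison and the test of strain by treatment called 0 of 9 genes under every alternative tried; the lowest adjusted p in the average comparison was 0.0857 over fits without 1 library, 0.149 over fits without 1 strain and 0.124 over the others. Within strains DESeq2 called 2 pairs, Pklr in C57BL6/J and G6pc in NOD/SHILTJ, and fits without 1 library 0 to 1. Genes differing between vehicle groups numbered 6 or 7 throughout. Between TCDD groups, a comparison whose alternatives were chosen after seeing the data, they numbered 4 to 7 without 1 library and 3 without CC019/TauUnc and the BXD lines. Pairs of strain and gene called in TCDD groups numbered 4 with no low-count filter and 11 with DESeq2, and 5 to 11 without 1 library, against 8; in vehicle groups they numbered 7 with no filter and 15 with DESeq2, and 9 to 15 without 1 library, against 11. Without a filter more genes are tested. Over all genes, DESeq2 called 789 (BXD100/RwwJ) to 3542 (CBA/J) genes per strain among vehicle groups. Among TCDD groups it called 1003 (CBA/J) to 2587 (C57BL6/J). For the other settings the share over all genes is not given. Whether these shifts are particular to the 9 genes was not tested. The sign of the average log2 change of Slc2a2 (−0.0085) turned without CC019/TauUnc and the BXD lines together (0.0037), without C57BL6/J (0.0093), FVB/NJ (0.0045), BALB/CJ (0.0022), 129S1/SVIMJ (0.0034) or BXD-40/TyJ (0.0098), and lay between −0.0318 and 0.0264 without 1 library. That of Gys2 lay between −0.0811 and 0.0044 without 1 library. Pklr in CC019/TauUnc, TCDD over vehicle, lay between −0.0205 and 0.419. Khk in C57BL6/J among TCDD groups turned to −0.1066 without C57BL6/J TCDD 3 and −0.1064 without the 3 libraries that stand apart, and lay between −0.0892 and 0.6299 without 1 library. The cause was not tested. The 9 genes had 914 or more counts in every library.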
